A study of Mus musculus with 23 samples.

Results

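Motile cilia genes were followed in RNA sequencing of mouse neocortical astrocyte cultures given the thyroid hormone triiodothyronine (T3). The set holds protein-coding genes of the GRCm38 annotation whose symbols begin with Cfap, Dnah, Dnai, Dnaaf, Rsph, Tekt or Drc. It also takes in 13 genes named singly, among them the regulators Foxj1, Mcidas, Gmnc, Ccno, Myb, Rfx2 and Rfx3. These came to 79 of the 38293 gene IDs counted, and 74 of the 79 were among the 16087 genes with enough counts to be tested. The rest were nearly silent, with 126 counts of Cfap58, 25 of Tekt3, 22 of Dnah14, 17 of Cfap97d1 and 5 of Rsph6a over all 23 libraries together.

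Motile cilia are beating cell projections whose core, the axoneme, is a ring of microtubule doublets around a central pair, driven by dynein motors. In the brain they cover the ependymal cells that line the ventricles and move cerebrospinal fluid. Cells that grow many such cilia switch on the coiled-coil proteins Gmnc and Mcidas, which act with E2F factors to start centriole amplification. Foxj1 and the RFX factors then drive the genes of the axoneme itself.

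The cells came from the whole neocortex of postnatal day 3 mice of a hybrid background (BALB/c+C57BL/6 and 129/OLa+129/Sv+), with meninges and blood vessels removed. They were grown for 7 days in medium with serum deprived of thyroid hormone, then for 24 h in 0.1% of such serum before treatment, so every group shares a hormone-poor medium and low serum. The 6 groups were 24 h T3 (3 libraries), 24 h control (4), 6 h CHX plus T3 (4), 6 h CHX (4), 6 h T3 (4) and 6 h control (4). T3 was given at 10 nM, and CHX, read here as the translation inhibitor cycloheximide, at 8 µg/ml from 30 min before T3. The controls received no T3, and the submitters state an astrocyte share above 95%. The labels do not say which libraries came from separate cultures or animals, so the p-values measure only the spread between libraries, which may be technical.

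Libraries held 13843040 to 22997873 reads counted to genes, of which 15371 to 61336 fell in the motile cilia genes. Levels are given in CPM, each library's counts divided by its total and corrected for composition, and a gene is called changed at a Benjamini-Hochberg adjusted p under 0.05 over all 16087 genes in edgeR's quasi-likelihood test. All 6 h control, all 6 h T3 and the first 3 of the 6 h CHX libraries came from sequencing lane 5, replicate 3 of 24 h T3 from lane 7 and the rest from lane 6. Time is therefore almost inseparable from lane, whereas the T3 comparison at 6 h lies within lane 5. Replicate 4 of 6 h CHX was higher than the other 3 libraries of its group for 62 of the 74 genes, by a median ratio of 1.67. Replicate 4 of 24 h control was the highest of its group for 51 genes (median ratio 1.32) and replicate 1 of 24 h T3 the lowest of its group for 44 (median ratio 0.858). In replicate 1 of 24 h T3, the median ratio was 0.615 for the 17 tested members with more than 10 kb of exons and 0.949 for the other 57. These are bulk samples, in which fewer cells of a type and less RNA per cell cannot be told apart. The library kit named in the labels does not mark strand, and 33 of the 79 genes overlap a gene on the other strand, among them Wdr66, Dnaaf5, Myb and Hydin, so that reads from such partners cannot be told apart. Rsph10b, Cfap43, Dnaaf2, Dnaaf3 and Cfap299 overlap a gene on the same strand, and Rsph10b, Dnaaf2 and Dnaaf3 have a partner on the other strand too.

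Of 16 astrocyte markers, most were abundant in every library, such as Gfap, the intermediate filament of astrocytes, at 2321 to 5627 CPM and Aqp4, their water channel, at 483 to 1037 CPM. Others were low, with Gjb6 at 0.0992 to 2.11 CPM, Slc7a10 at 0.305 to 3.07 CPM, S100b at 2.05 to 8.05 CPM and Ntsr2 at 7.08 to 24.2 CPM. Of 14 markers of ependymal cells, Tmem212 lay between 0 and 0.685 CPM, Fam183b between 0.0586 and 1.54 CPM and Ccdc153 between 0.582 and 5.14 CPM. Other genes of that list were well expressed, with Enkur at 19.7 to 69.4 CPM, Cd24a at 122 to 221 CPM, Pltp at 114 to 229 CPM, Tm4sf1 at 114 to 216 CPM, Sox4 at 184 to 434 CPM and Vim at 5392 to 10792 CPM, so that the list's sum was mostly Vim. Of 12 choroid plexus markers, Ttr, its hallmark, reached 0.163 CPM at most and 5 fell under the filter on low counts, whereas Sostdc1 had 30.4 to 74.04 CPM, Folr1 8.92 to 44.0 CPM and Kcnj13 1.95 to 11.6 CPM. Their sum was 94.2 to 109.7 CPM in 24 h T3, against 65.5 to 75.3 CPM in 24 h control, and 95.9 to 104 CPM in 6 h CHX, against 56.9 to 72.1 CPM in 6 h control, ratios of 1.44 and 1.55. Of 14 microglia markers, summed levels were 131 to 155 CPM in 24 h T3, 126 to 228 CPM in 24 h control, 65.8 to 75.9 CPM in 6 h CHX plus T3, 74.9 to 111 CPM in 6 h CHX, 143 to 160 CPM in 6 h T3 and 119 to 149 CPM in 6 h control. Their part in the results below was not tested.

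RFX factors bind the X-box, searched here as GTNNCC, then NNN, then GNAAC (N being any base) on both strands in windows from 250 bases before to 50 bases after each gene's first base (RefSeq, GRCm38.p6). A window was at hand for 66 members, and 12 of these, or 18.2%, held a match, against 2.49% of all 27025 gene symbols with a window (673). Those symbols were not limited to protein-coding or tested genes, whereas the members are protein-coding by rule. Shown first, as genes named again below, are the windows of the regulator Ccno (chr13:112987552-112987851, plus strand), of Hydin (chr8:110266727-110267026, plus strand), Cfap44 (chr16:44394549-44394848, plus strand), Cfap45 (chr1:172520880-172521179, plus strand) and Cfap206 (chr4:34730157-34730456, minus strand). Whether a match bears on the changes below was not tested. Each is read 5′ to 3′ on its gene's strand, and capitals mark the bases that match the X-box on either strand.
Ccno: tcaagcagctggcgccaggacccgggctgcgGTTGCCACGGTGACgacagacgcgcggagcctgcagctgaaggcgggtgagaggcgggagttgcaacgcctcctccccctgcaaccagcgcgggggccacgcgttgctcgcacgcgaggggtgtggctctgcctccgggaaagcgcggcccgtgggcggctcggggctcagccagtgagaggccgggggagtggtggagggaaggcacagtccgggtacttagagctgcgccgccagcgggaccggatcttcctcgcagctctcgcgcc
Hydin: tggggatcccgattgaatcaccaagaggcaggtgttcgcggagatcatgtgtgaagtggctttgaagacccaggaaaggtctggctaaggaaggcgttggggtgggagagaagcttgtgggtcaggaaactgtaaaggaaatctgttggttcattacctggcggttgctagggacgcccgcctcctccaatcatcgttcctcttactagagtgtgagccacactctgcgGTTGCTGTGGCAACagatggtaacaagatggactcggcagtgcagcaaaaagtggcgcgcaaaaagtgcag
Cfap44: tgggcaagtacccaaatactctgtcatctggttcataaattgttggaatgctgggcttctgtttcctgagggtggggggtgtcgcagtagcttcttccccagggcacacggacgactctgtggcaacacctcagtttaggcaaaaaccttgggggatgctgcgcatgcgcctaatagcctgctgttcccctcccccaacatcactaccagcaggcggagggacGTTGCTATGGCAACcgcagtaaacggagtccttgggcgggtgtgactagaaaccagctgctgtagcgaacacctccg
Cfap45: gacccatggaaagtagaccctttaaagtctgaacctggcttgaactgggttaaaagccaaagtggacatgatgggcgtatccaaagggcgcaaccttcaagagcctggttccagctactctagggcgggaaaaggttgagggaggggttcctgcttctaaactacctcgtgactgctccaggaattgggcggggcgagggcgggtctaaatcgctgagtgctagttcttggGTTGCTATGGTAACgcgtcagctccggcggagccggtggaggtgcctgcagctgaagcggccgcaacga
Cfap206: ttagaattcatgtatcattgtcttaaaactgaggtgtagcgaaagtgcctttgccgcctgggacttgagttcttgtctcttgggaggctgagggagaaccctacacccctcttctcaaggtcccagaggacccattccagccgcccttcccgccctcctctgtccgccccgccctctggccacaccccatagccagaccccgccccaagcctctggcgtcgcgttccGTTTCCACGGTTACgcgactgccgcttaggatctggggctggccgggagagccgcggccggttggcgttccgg

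The matches began at position -219 in Ccno, -27 in Cfap44, -23 in Cfap206, -21 in Hydin and -19 in Cfap45, counting the first base of the gene as 0. The matches of the other members follow, also written 5′ to 3′ on the gene's strand, so that a match found on the opposite strand appears as its reverse complement. Capitals mark the whole match.
Cfap298: GTTGCCCGGGCAAC
Cfap61: GTTTCCTTAGCAAC
Dnaaf2: GTTACTATGGCAAC
Dnaaf5: GTTCCCTTGGAGAC
Dnah17: GTCACCAGCGCAAC
Spag6l: GTTGCCCTGGAGAC
Tekt4: GTGTCCTGGGAAAC
Tekt4, further match: GTTCCTTAGGCAAC

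These began at position -188 in Cfap298, -159 in Dnah17, -18 in Dnaaf5, -17 in Dnaaf2, -8 in Cfap61 and 34 in Spag6l, and at -160 and 0 in Tekt4. The shorter word GTTGCC, which overlaps many X-box matches, was in the windows of 27 members (40.9%), against 14.1% of all symbols with a window. The forkhead word TGTTTAC was in those of 6 (9.09%), against 4.05% of all such symbols. Windows of Cfap157, Cfap299, Cfap53, Cfap54, Cfap65, Cfap73, Cfap97, Dnaaf1, Dnah3, Foxj1, Rsph1, Rsph10b and Rsph4a were not used here. A match describes letters in a window and not a bound site.

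Foxj1, the forkhead factor that switches on the motile cilium programme, was the most abundant member by far. In 24 h T3 cultures it stood at 1057, 919 and 913 CPM, and in 24 h controls at 874, 903, 880.3 and 1094 CPM. The 6 h CHX plus T3 libraries had 453, 437, 381 and 444 CPM, and the 6 h CHX libraries 513, 500.4, 436 and 607 CPM. The 6 h T3 libraries had 491, 549.6, 527 and 486 CPM, and the 6 h controls 437, 435, 489 and 352 CPM. Every 24 h library thus lay above every 6 h library, while the 6 h groups overlapped in part. Per kilobase of exon, Foxj1 averaged 367 CPM per kb in 24 h T3 and 358 CPM per kb in 24 h controls, ranks 52 and 47 among 21250 protein-coding genes. It averaged 163 CPM per kb in 6 h controls, rank 173. It made up 26.9% to 41.9% of the summed CPM of the 79 genes in a library. Its level in 24 h controls was 1.13 ± 0.10 higher than in 6 h controls on the log2 scale (SE, edgeR adjusted p 8.08e-10).

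Mcidas (multicilin), which launches centriole amplification, changed more. It had 24.9, 28.5 and 30.1 CPM in 24 h T3 libraries, against 23.2, 27.0, 22.3 and 38.6 CPM in 24 h controls. It had 4.44, 2.23, 3.95 and 5.13 CPM in 6 h CHX plus T3 libraries, against 4.76, 3.99, 4.33 and 10.2 CPM in 6 h CHX libraries. It had 5.54, 4.93, 4.55 and 6.42 CPM in 6 h T3 libraries, against 3.15, 2.86, 2.62 and 2.50 CPM in 6 h controls. The 24 h libraries were far above all others, and no 6 h T3 library overlapped the 6 h controls. Between controls the 24 h level was 3.31 ± 0.25 higher on the log2 scale (adjusted p 1.38e-10), a 9.92-fold difference.

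Myb, a transcription factor that promotes centriole amplification in cells about to become multiciliated, was alike in size of change. It had 58.0, 63.9 and 74.4 CPM in 24 h T3 libraries, against 52.8, 62.7, 54.7 and 76.9 CPM in 24 h controls. At 6 h it had 7.83, 7.32, 8.49 and 8.33 CPM with CHX plus T3, against 6.55, 7.97, 6.19 and 16.7 CPM with CHX alone. Without CHX it had 9.23, 10.7, 11.3 and 13.1 CPM in 6 h T3 libraries, against 5.82, 5.96, 6.05 and 8.03 CPM in 6 h controls. Replicate 4 of 6 h CHX was more than 2 times the other libraries of its group. Between controls the 24 h level was 3.27 ± 0.21 higher on the log2 scale (adjusted p 1.07e-11).

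Ccno, a cyclin-like protein needed to build the many centrioles, lies beside Mcidas on chromosome 13 (112987802 to 112990777 for Ccno and 112993845 to 113000394 for Mcidas, both plus strand, GRCm38). It had 78.8, 72.7 and 75.2 CPM in 24 h T3 libraries, against 58.5, 63.3, 57.1 and 93.0 CPM in 24 h controls. The 6 h CHX plus T3 libraries had 25.9, 22.8, 20.2 and 23.2 CPM, against 28.9, 29.9, 22.97 and 42.0 CPM in 6 h CHX libraries. The 6 h T3 libraries had 17.4, 19.0, 18.3 and 20.9 CPM, against 13.6, 15.2, 13.97 and 16.3 CPM in 6 h controls. By group means the order was 24 h, then CHX, then the 6 h groups without CHX, and the 6 h CHX plus T3 and 6 h T3 libraries overlapped. The 24 h controls were 2.21 ± 0.15 above the 6 h controls on the log2 scale (adjusted p 2.31e-11).

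Gmnc, the geminin-related protein upstream of Mcidas, had 43.0, 60.3 and 60.6 CPM in 24 h T3 libraries, against 59.3, 56.5, 61.6 and 56.4 CPM in 24 h controls. It had 24.9, 29.5, 29.5 and 26.4 CPM in 6 h CHX plus T3 libraries, against 35.2, 34.0, 33.2 and 38.9 CPM in 6 h CHX libraries. In 6 h T3 libraries it had 19.9, 16.9, 17.8 and 19.9 CPM, against 14.7, 15.6, 16.2 and 16.2 CPM in 6 h controls. Neither pair of 6 h groups overlapped: with CHX the T3 libraries were the lower ones, and without CHX they were the higher ones. The 24 h controls were 1.90 ± 0.09 above the 6 h controls on the log2 scale (adjusted p 1.08e-13).

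Rfx2 and Rfx3, factors that bind the X-box of ciliary promoters, differed least among the regulators between the controls. Rfx2 had 62.9, 65.8 and 63.0 CPM in 24 h T3 libraries and 58.7, 65.8, 61.5 and 66.0 CPM in 24 h controls. Its highest values were with CHX, at 76.6, 81.2, 89.1 and 80.0 CPM with T3 and 83.4, 86.1, 81.3 and 77.9 CPM without. The 6 h T3 libraries had 57.8, 54.4, 53.1 and 50.3 CPM and the 6 h controls 47.5, 52.4, 56.5 and 47.9 CPM. Both 6 h groups without CHX lay below every 24 h library, by 0.30 ± 0.06 on the log2 scale between controls (adjusted p 0.000261). For Rfx3 the 24 h controls, at 112, 121, 105 and 115 CPM, were 0.76 ± 0.12 above the 6 h controls, at 61.4, 71.9, 70.9 and 62.6 CPM (adjusted p 7.2e-06). The 24 h T3 libraries had 70.7, 109 and 119 CPM of Rfx3 and the 6 h T3 libraries 74.8, 58.3, 66.9 and 74.1 CPM, and these 2 groups overlapped through replicate 1 of 24 h T3.

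**Figure D1:**
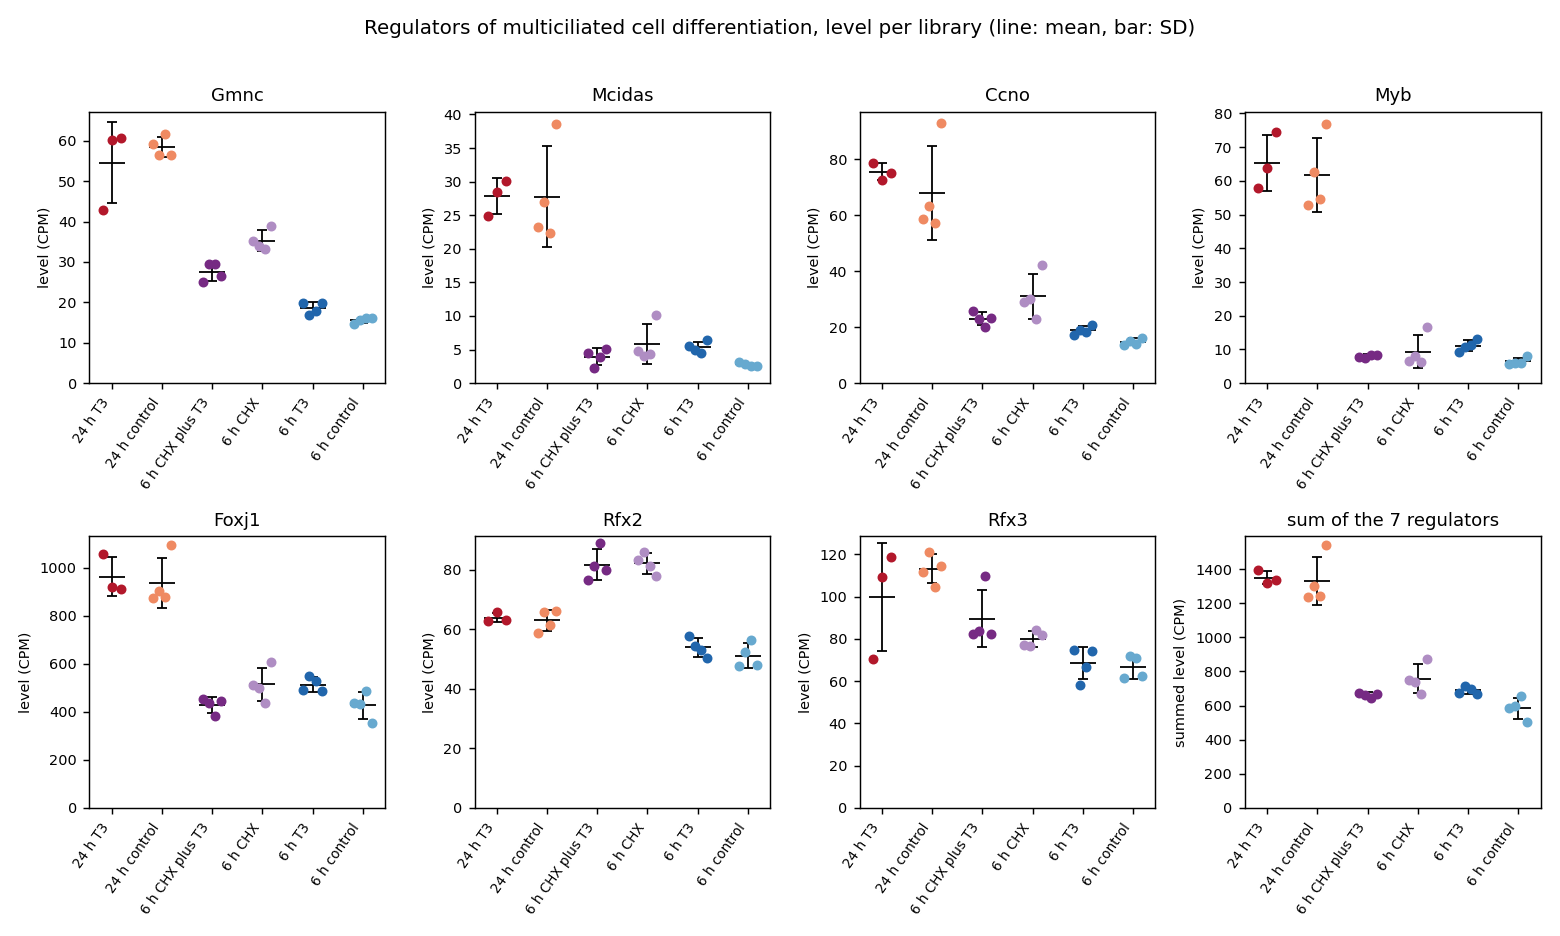
Level in CPM (vertical axis, from 0, its own scale in each panel) of the 7 regulators in every library (points), by group from 24 h T3 on the left to 6 h control on the right, with the group mean (line) and SD (bar). Mcidas, Myb, Ccno, Gmnc and Foxj1 were highest in both 24 h groups, with Foxj1 at 874 to 1094 CPM in 24 h controls, whereas Rfx2 was highest with CHX.

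The largest difference in the series for these genes was that of time between the controls. Of the 74 genes, 68 were higher in 24 h than in 6 h controls and none was lower, while 28.2% of all genes tested were called higher (56.6% called in either direction). The median log2 difference was 1.52 for the 74 genes and -0.0017 for all genes, and 73 of the 74 were above 0, against 49.9% of all genes. In 62 genes every 24 h control lay above every 6 h control, against 24.8% of all genes. Differences passed 1 on the log2 scale in 58 genes, 2 in 16 and 3 in Mcidas and Myb only. The 6 genes not called were Dnaaf5, Cfap97, Rsph9, Rsph3a, Dnah17 and Spag17. Some of the 68 had few counts and passed the filter on low counts through the 24 h libraries, where they were high. Rsph14 had 1 to 5 counts in 6 h controls and 9 to 12 in 24 h controls, Cfap73 2 to 7 and 7 to 16, and Dnah8 3 to 7 and 4 to 25. Their calls are not independent of the filter, and they also enter the counts by role below. Without replicates 2 and 4 of 24 h control the count was 56 and the median 1.24. With lane as a term, which rests on replicate 4 of 6 h CHX alone to link the lanes, 29 genes were called, all higher, against 27.4% of all genes in either direction, and the median was 0.67. All 7 regulators were called in that fit, at 2.09 for Mcidas, 1.99 for Myb, 1.71 for Gmnc, 1.58 for Ccno, 0.80 for Foxj1, 0.72 for Rfx3 and 0.40 for Rfx2. Among 13 ependymal markers tested, several of them ciliary genes, 6 were higher in 24 h controls and 1 lower, and among 14 microglia markers 5 were higher and none lower. Of 10 neuron markers 7 were higher and 1 lower, with a median of 0.49, and of 9 oligodendrocyte lineage markers 5 were higher and 2 lower, with a median of 0.63 and a highest value of 3.46. Their part in the difference was not tested.

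The dynein heavy chains, the motor subunits of the outer and inner arms, summed to 138 ± 20.7 CPM in 24 h controls and 50.1 ± 4.73 CPM in 6 h controls (SD, n = 4 each), a ratio of 2.74. Between controls 12 of the 13 heavy chains tested were higher at 24 h. Dnah6, an inner-arm chain, had 13.96, 18.05, 12.2 and 21.7 CPM in 24 h controls, against 2.10, 2.27, 2.27 and 3.64 CPM in 6 h controls, 2.70 ± 0.35 higher on the log2 scale (adjusted p 5.5e-07). Dnah9, an outer-arm chain and the most abundant of the family per kilobase, had 35.8, 50.2, 39.9 and 49.4 CPM in 24 h controls, against 16.3, 18.4, 22.6 and 21.2 CPM in 6 h controls. Its difference was 1.16 ± 0.17 (adjusted p 2.96e-06). Dnah5, its outer-arm partner, differed by 1.48 ± 0.24 (adjusted p 1.28e-05). The 13th chain, Dnah17, known from the outer arms of sperm flagella, had 1.07, 1.57, 1.01 and 1.26 CPM in 24 h controls, against 1.61, 1.55, 2.44 and 1.36 CPM in 6 h controls, with overlapping groups.

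All 3 intermediate chains, which anchor the arms to the doublet, were higher at 24 h between controls. Dnaic2 of the outer arm had 15.1, 18.7, 13.2 and 22.7 CPM in 24 h controls, against 5.51, 5.96, 6.28 and 6.29 CPM in 6 h controls (1.54 ± 0.17, adjusted p 2.96e-08). The assembly factors, which fold dynein arms in the cytoplasm before transport, moved less, with a median difference of 0.26. Only Dnaaf1 among the 4 was far apart, with 3.58, 3.13, 3.08 and 5.02 CPM in 24 h controls, against 1.05, 0.775, 0.349 and 1.06 CPM in 6 h controls (2.21 ± 0.29). Dnaaf5 had 36.9, 43.4, 38.5 and 37.4 CPM in 24 h controls, against 39.2, 36.0, 40.4 and 33.8 CPM in 6 h controls, and these overlapped.

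Radial spokes carry signals from the central pair to the dynein arms, and 7 of their 9 genes tested were higher in 24 h controls. Rsph4a, a spoke-head protein, had 35.1, 50.0, 38.6 and 55.1 CPM in 24 h controls, against 10.4, 11.6, 12.5 and 10.8 CPM in 6 h controls (1.98 ± 0.18, adjusted p 2.17e-09). Rsph9, also of the spoke head, had 37.7, 39.5, 37.7 and 40.4 CPM in 24 h controls, against 35.8, 29.9, 27.1 and 38.9 CPM in 6 h controls, and was not called (0.24 ± 0.13, adjusted p 0.116). Whether the time differences of the spoke-head genes differed from each other was not tested.

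In the central pair group 7 of 8 genes were higher, with a median of 1.56. Hydin, a giant protein of the central pair whose loss causes hydrocephalus in mice, had 3.71, 4.92, 3.24 and 6.79 CPM in 24 h controls, against 1.92, 1.79, 1.80 and 1.67 CPM in 6 h controls (1.37 ± 0.36, adjusted p 0.00241). Cfap54, a further central pair protein and the most abundant of them per kilobase, had 107, 111, 115 and 115 CPM in 24 h controls, against 50.1, 50.1, 54.8 and 53.5 CPM in 6 h controls. All 3 genes of the nexin-dynein regulatory complex, the link between doublets, were higher, at 1.75 for Drc7, 1.30 for Drc3 and 0.65 for Drc1.

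All 4 tektins tested, filament proteins inside the doublets, and all 6 microtubule inner proteins were higher in 24 h controls, with medians of 1.96 and 1.99. Tekt1 had 19.7, 24.97, 19.2 and 33.4 CPM in 24 h controls, against 4.95, 5.25, 3.84 and 4.62 CPM in 6 h controls (2.38 ± 0.21, adjusted p 1.21e-09). Cfap45, a doublet inner protein whose promoter window with an X-box is shown above, had 11.6, 19.5, 10.5 and 28.1 CPM in 24 h controls, against 4.08, 2.68, 4.71 and 3.64 CPM in 6 h controls (2.20 ± 0.27, adjusted p 2.93e-07). Among the other Cfap genes 15 of 16 were higher, led by Cfap97d2 at 2.49 ± 0.22 and Cfap43 at 2.17 ± 0.34. Ak7, an adenylate kinase of the ciliary shaft, was 1.23 ± 0.32 higher (adjusted p 0.00229).

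**Figure D2:**
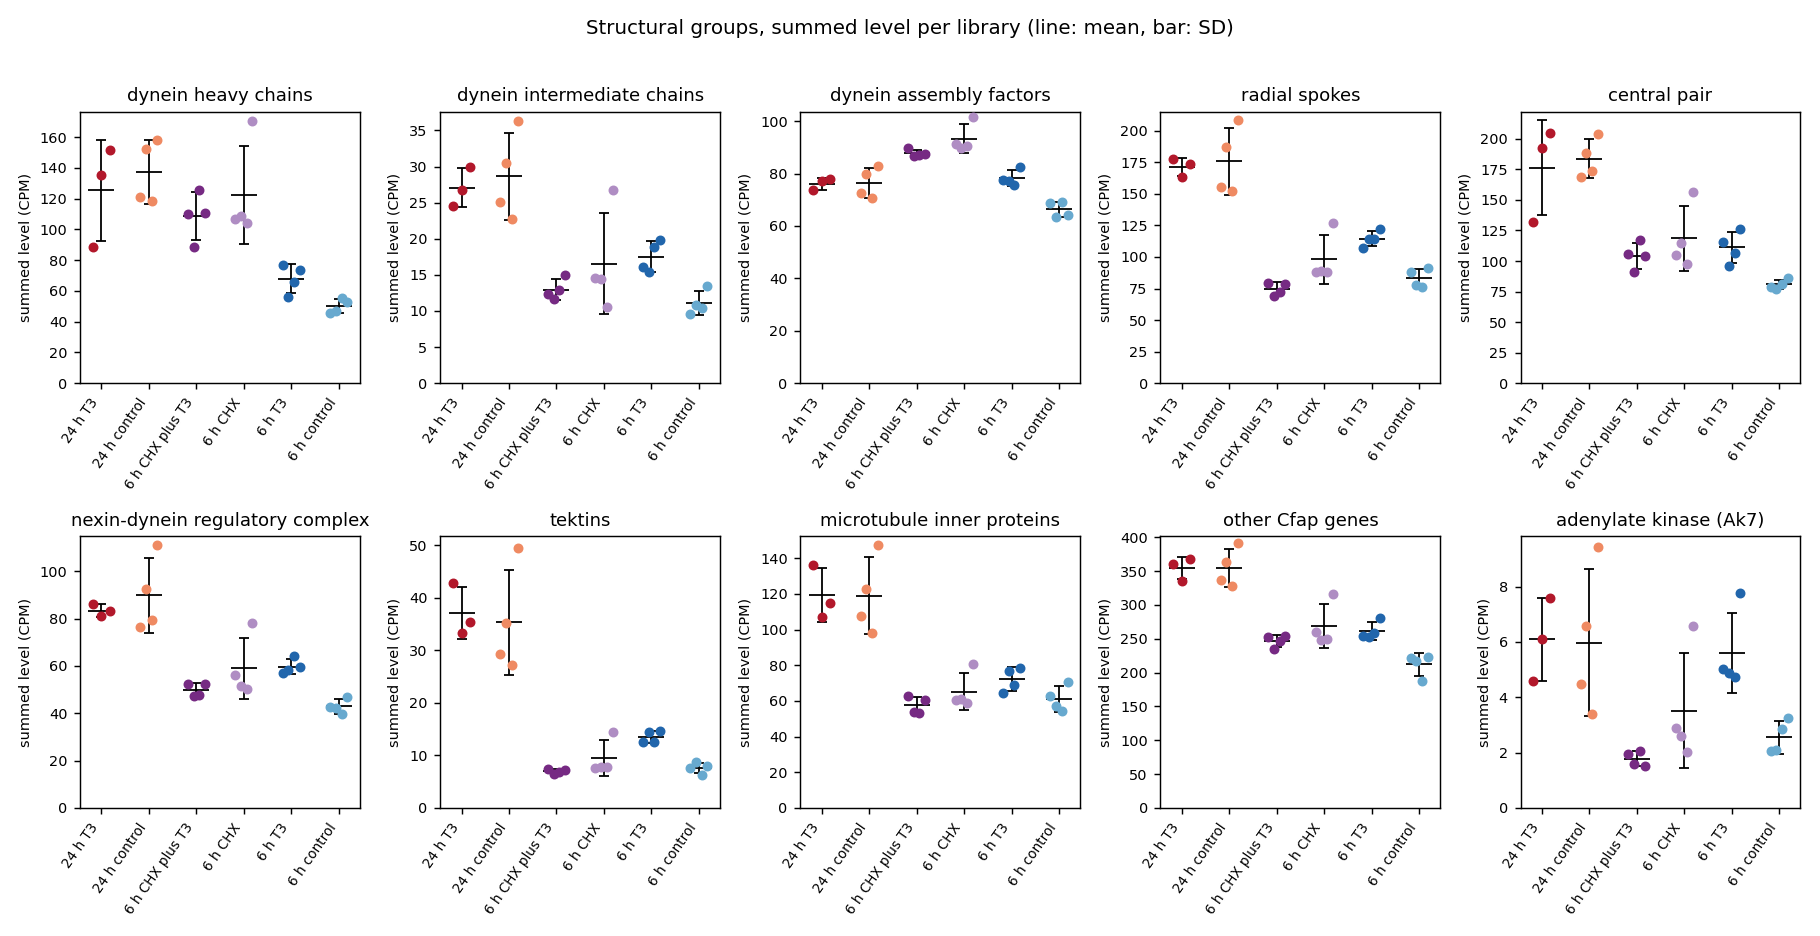
Summed CPM of each structural group (vertical axis, from 0, its own scale in each panel) in every library (points), by group from 24 h T3 on the left to 6 h control on the right, with mean (line) and SD (bar). Heavy chains summed to 138 CPM in 24 h controls and 50.1 CPM in 6 h controls, whereas assembly factors stood highest with CHX.

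With T3 in the medium at both times, 24 h and 6 h differed less. Of the 74 genes, 49 were higher in 24 h T3 than in 6 h T3 libraries and 1, Dnaaf5, was lower, while 29.3% of all genes were called higher and 28.2% lower. The median log2 difference was 0.83, and in 42 genes every 24 h T3 library lay above every 6 h T3 library, against 25.4% of all genes. The groups were apart downward in 1 gene, Dnaaf5, against 25.7%. Mcidas was 2.38 ± 0.24 and Myb 2.56 ± 0.21 higher, and all 7 regulators were called. Wdr66, of the complex at the base of a radial spoke, had 22.6, 24.2 and 26.3 CPM in 24 h T3 libraries and 18.8, 19.2, 22.2 and 23.6 CPM in 6 h T3 libraries, which overlapped (0.22 ± 0.17, adjusted p 0.288). Ak7 had 4.60, 6.11 and 7.58 CPM in 24 h T3 libraries and 5.02, 4.88, 4.73 and 7.77 CPM in 6 h T3 libraries, and its groups overlapped too. With lane as a term 18 genes were called, 13 higher and 5 lower, with a median of 0.02, where 33.6% of all genes were called. Rsph4a then went to -0.02, with 0.98 without the term.

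At 6 h, T3 raised 14 of the 74 genes (18.9%) and lowered none, while 3.77% of all genes were called and 2.61% were called higher. The median log2 change was 0.51 for the 74 genes and 0.0028 for all genes, and 69 of the 74 were above 0, against 50.8% of all genes. In 36 genes every 6 h T3 library lay above every 6 h control, against 6.71% of all genes, and in none did every T3 library lie below, against 4.81%. The summed CPM of all 79 genes was 1492 ± 31.1 in 6 h T3 and 1203 ± 30.1 in 6 h control libraries (SD, n = 4 each), a ratio of 1.24. All 8 libraries of this comparison came from 1 lane. The count hung on single libraries. It was 10, 16, 6 and 4 without replicates 1 to 4 of 6 h T3 in turn, and 9, 5, 3 and 13 without replicates 1 to 4 of 6 h control.

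Wdr66 was the member with the smallest p. It had 18.8, 19.2, 22.2 and 23.6 CPM in 6 h T3 libraries, against 10.5, 8.65, 8.20 and 11.7 CPM in 6 h controls. The groups were well apart, by 1.11 ± 0.18 on the log2 scale (adjusted p 0.000288). Wdr66, Rsph4a and Dnaaf5 were the genes called in all 19 alternatives tried for this comparison. Rsph4a had 22.4, 17.5, 18.5 and 22.0 CPM in 6 h T3 libraries, against 10.4, 11.6, 12.5 and 10.8 CPM in 6 h controls (0.83 ± 0.19, adjusted p 0.00943). Dnaaf5, an assembly factor, had 47.3, 45.8, 47.0 and 51.3 CPM in 6 h T3 libraries, against 39.2, 36.0, 40.4 and 33.8 CPM in 6 h controls (0.36 ± 0.07, adjusted p 0.00369). In each of them the T3 libraries stood above every control.

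By role, the called genes were spread thinly, where 2.61% of all genes were called higher and 3.77% in either direction. None of the 7 regulators and none of the 13 heavy chains was called with T3 at 6 h by edgeR. The unadjusted p was under 0.05 in 5 of each, but the share of all genes under that threshold was not computed. Of the intermediate chains 2 of 3 rose, Dnaic2 by 0.67 ± 0.17 and Wdr63, an inner-arm chain, by 1.27 ± 0.35. Of the radial spoke genes 3 of 9 rose, the third being Rsph1 of the spoke head, at 0.65 ± 0.16. Of the nexin-dynein regulatory complex 2 of 3 rose, Drc3 by 0.56 ± 0.15 and Drc1 by 0.32 ± 0.09. Each of the remaining groups gave 1 gene, apart from 2 of 16 other Cfap genes. Spag6l of the central pair rose by 0.93 ± 0.23, Tekt1 by 0.96 ± 0.22, Cfap161 of the doublet lumen by 1.20 ± 0.30 and Ak7 by 1.14 ± 0.32. Cfap299 rose by 1.37 ± 0.37 and Cfap36 by 0.33 ± 0.08. Tekt1 lost its call only without replicate 3 of 6 h control (adjusted p 0.0528), and Cfap36 without that library or replicate 4 of 6 h T3 (adjusted p 0.0888). The other 9 lost theirs in 4 to 7 of the 8 fits that left out 1 library.

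Among the regulators, T3 values at 6 h stood above the control values without passing the test for Mcidas (0.94 ± 0.29, adjusted p 0.067) and Myb (0.79 ± 0.23, adjusted p 0.0549). Mcidas was called in 10 of 19 alternatives and Myb in 8. Foxj1 differed by 0.26 ± 0.10 (adjusted p 0.143), Gmnc by 0.25 ± 0.10 (adjusted p 0.18) and Ccno by 0.36 ± 0.16 (adjusted p 0.24). Rfx2 and Rfx3 differed by 0.08 ± 0.06 and 0.04 ± 0.12. In 4 of the 7, all but Foxj1, Rfx2 and Rfx3, every 6 h T3 library lay above every 6 h control, against 6.71% of all genes. Summed microglia markers were 143 to 160 CPM in these T3 libraries and 119 to 149 CPM in the controls, with 13 of 14 markers above 0 and none called. Of 10 neuron markers 8 were above 0 and 1 was called higher, with a median of 0.39. Of all genes 50.8% were above 0 and 2.61% were called higher. Their part was not tested.

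After 24 h of T3 no motile cilia gene was called by edgeR's quasi-likelihood test or by DESeq2, while edgeR called 7.09% of all genes, 4.41% as higher and 2.68% as lower. At an unadjusted p under 0.05 there were 4 genes, Dnah17 (0.66) and Cfap298 (0.24) above 0 and Dnah9 (-0.41) and Cfap300 (-0.23) below it. The share of all genes at that threshold was not computed. The median log2 change was -0.05, and 28 of the 74 were above 0. Cfap300, which takes part in dynein assembly, was the single gene whose T3 libraries all lay below the controls, against 7.02% of all genes, and no gene had all of them above, against 8.13%. Summed CPM of the 79 genes was 2527 ± 52.8 in 24 h T3 (n = 3) and 2537 ± 289 in 24 h control libraries (n = 4), a ratio of 0.996. Hydin had 1.76, 6.05 and 6.44 CPM in 24 h T3 libraries, against 3.71, 4.92, 3.24 and 6.79 CPM in 24 h controls. Its lowest value was in replicate 1 of 24 h T3, in which members with more than 10 kb of exons, Hydin among them, were mostly low.

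**Figure D3:**
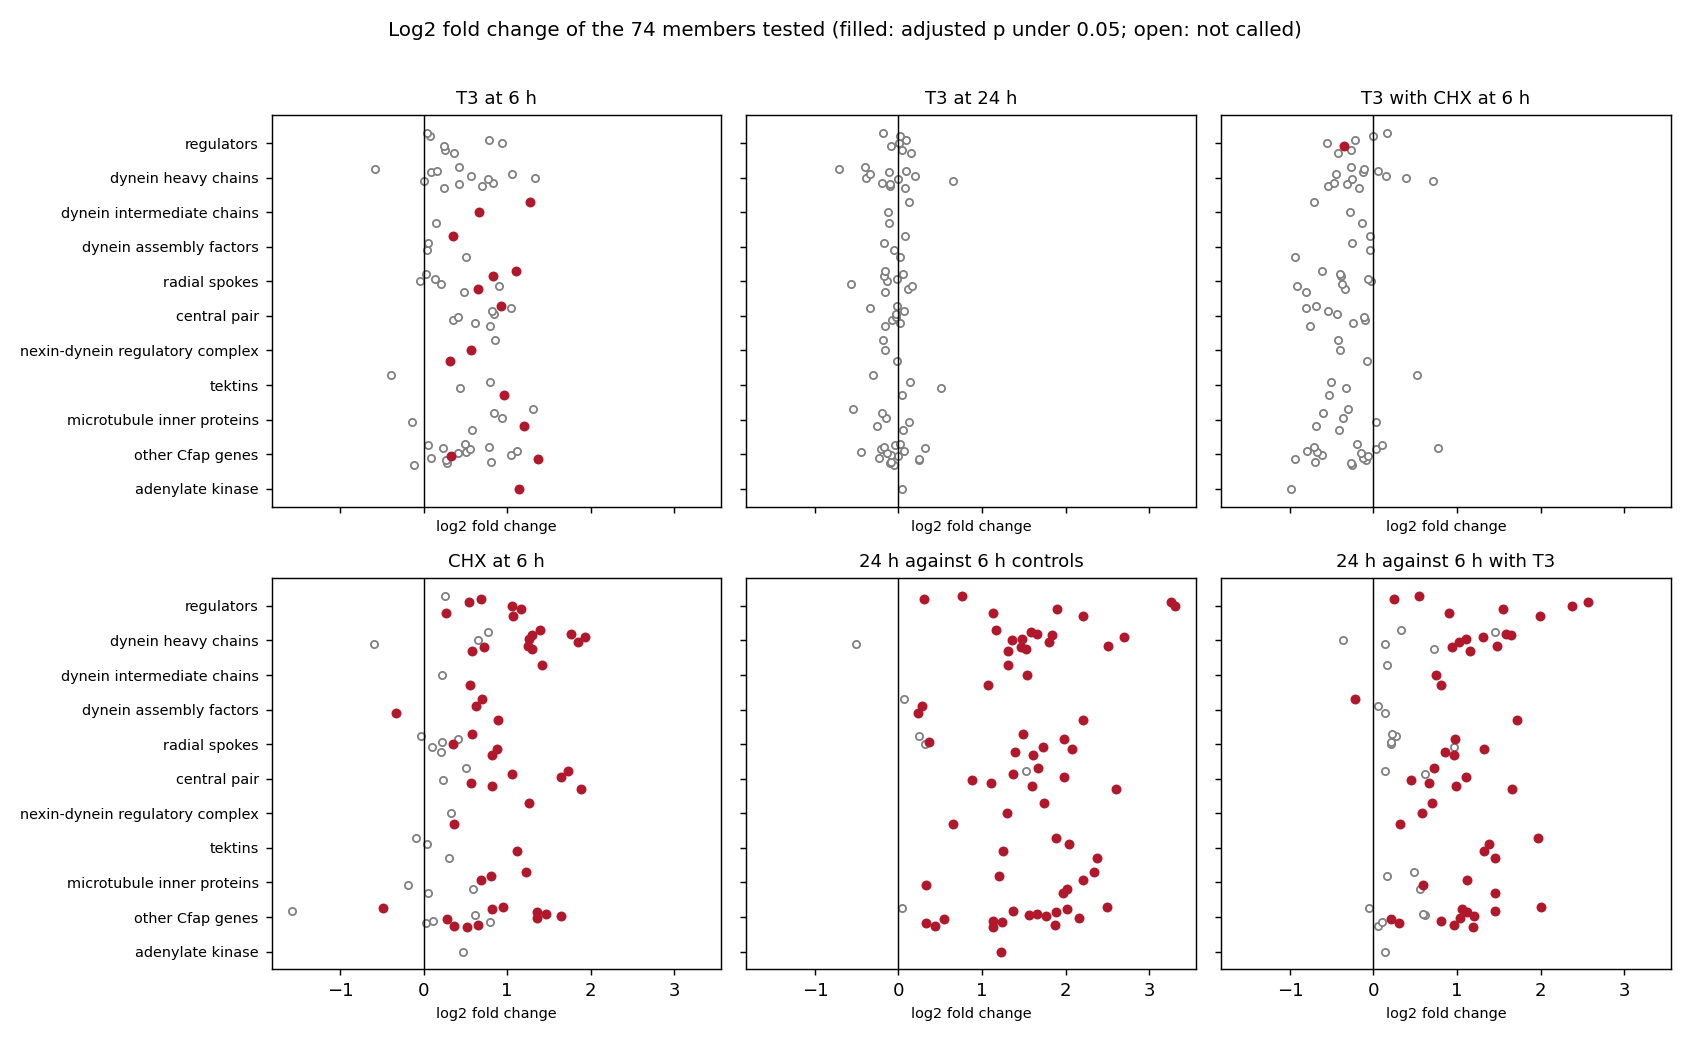
Log2 fold change (horizontal axis) of the 74 genes tested by role (vertical axis) in 6 comparisons, filled where the adjusted p was under 0.05. Points at 6 h of T3 centre on 0.51 and those at 24 h of T3 on -0.05, while the difference between 24 h and 6 h controls centres on 1.52 and reaches 3.31 for Mcidas.

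The T3 effects at the 2 times were compared directly. At 24 h the effect was below that at 6 h for the median member by 0.58 on the log2 scale. Only Wdr66 was called (-1.27 ± 0.25, edgeR adjusted p 0.011), against 0.298% of all genes called lower and 0.839% in either direction. An unadjusted p under 0.05 was found in 37 of the 74, with no share of all genes computed beside it. Wdr66 had 22.6, 24.2 and 26.3 CPM in 24 h T3 libraries, against 22.4, 29.1, 21.2 and 36.1 CPM in 24 h controls, which overlapped. For the regulators the differences of effect were -0.94 for Mcidas, -0.70 for Myb, -0.34 for Gmnc, -0.22 for Foxj1 and -0.21 for Ccno, none of them called. All 14 microglia markers (median -0.42) and 9 of 10 neuron markers (median -0.65) were below 0 in the same comparison, none of them called, and their part was not tested.

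CHX by itself, against 6 h controls, raised 47 of the 74 genes and lowered 2, Dnaaf2 and Cfap97. CHX moved most of the transcriptome, with 37% of all genes called higher and 30.6% lower (67.5% together), so that the members' share higher is read against that background. The median log2 change of the members was 0.65, and of all genes 0.06. In 31 genes the groups did not overlap upward and in 3 downward, against 34.3% and 28.4% of all genes. Without replicate 4 of 6 h CHX, which leaves a comparison within 1 lane, 34 genes were called and the median was 0.37. The T3 comparison at 6 h, the CHX comparison and the time comparison between controls share the same 6 h control libraries. With CHX, none of the 13 ependymal markers tested was called higher and 6 were lower, with a median of -0.09. None of 16 astrocyte markers was higher and 10 were lower, and none of 14 microglia markers was higher and 7 were lower. Of 10 neuron markers 1 was higher and 2 lower, and of 9 oligodendrocyte lineage markers 2 and 4. Of 12 vascular and meningeal markers 1 was higher and 3 lower, and of 7 choroid plexus markers 3 and none. Their part was not tested.

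Among regulators, 6 of 7 were called higher with CHX, where 37% of all genes were called higher and 67.5% in either direction. Gmnc rose by 1.17 ± 0.10 (adjusted p 7.18e-11), Ccno by 1.07 ± 0.15 (adjusted p 1.21e-06) and Rfx2 by 0.68 ± 0.06 (adjusted p 6.14e-10), all with groups that did not overlap. Mcidas rose by 1.06 ± 0.28 (adjusted p 0.0021). Foxj1 rose by 0.26 ± 0.10 (adjusted p 0.0181) and lost its call in 5 of 19 alternatives, among them those without replicate 4 of 6 h CHX and without replicate 4 of 6 h control (adjusted p at most 0.112). Myb, at 0.54 ± 0.23 (adjusted p 0.0438), lost its call in 11 of 19. Leaving out 1 library ended it without replicate 4 of 6 h CHX (0.11, adjusted p 0.585) and without replicate 1, 2 or 3 of 6 h control.

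CHX raised 10 of the 13 heavy chains, with a median of 1.26, where 37% of all genes were called higher and 67.5% in either direction. The chains' summed level was 122 ± 32.0 CPM in 6 h CHX, against 50.1 ± 4.73 CPM in 6 h control libraries. Dnah7b, an inner-arm chain, had 15.1, 15.6, 14.02 and 18.8 CPM in 6 h CHX libraries, against 4.27, 4.47, 5.64 and 4.17 CPM in 6 h controls (1.77 ± 0.15, adjusted p 1.54e-10). Dnah9 had 47.2, 45.5, 45.7 and 66.7 CPM in 6 h CHX libraries, against 16.3, 18.4, 22.6 and 21.2 CPM in 6 h controls (1.39 ± 0.17). Both separated fully from the controls. Cfap44, part of the tether of an inner dynein arm and shown above with an X-box, had 37.2, 37.4, 34.7 and 53.6 CPM in 6 h CHX libraries, against 12.6, 13.5, 13.7 and 12.2 CPM in 6 h controls (1.64 ± 0.17, adjusted p 5.31e-09).

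The other structural groups had smaller medians with CHX than the heavy chains. In the central pair group 6 of 8 genes were called, all higher, with a median of 0.94. Of 16 other Cfap genes 10 were higher and 1 lower, with a median of 0.63. Of the 4 assembly factors 3 were higher and 1 lower, with a median of 0.66. Of all genes, 37% were called higher and 30.6% lower. Tekt1 had 4.12, 4.95, 4.28 and 9.66 CPM in 6 h CHX libraries, against 4.95, 5.25, 3.84 and 4.62 CPM in 6 h controls, so that only replicate 4 stood apart (0.30, not called). The tektins had a median of 0.17 with 1 of 4 called, and the nexin-dynein regulatory complex a median of 0.36 with 2 of 3 called. Rsph1 had 13.9, 15.2, 15.7 and 26.7 CPM in 6 h CHX libraries, against 17.3, 14.2, 15.4 and 15.0 CPM in 6 h controls (0.21, not called). Among the assembly factors Dnaaf5 rose by 0.70 ± 0.07 and Dnaaf2 fell by 0.33 on the log2 scale (SE 0.09, adjusted p 0.00234). Cfap97 had 17.2, 16.6, 15.6 and 15.2 CPM in 6 h CHX libraries, against 21.1, 24.0, 22.8 and 22.5 CPM in 6 h controls (-0.48 ± 0.09, adjusted p 3.29e-05).

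With CHX present, T3 gave 1 call among the 74 genes, Gmnc, which was lower by 0.36 on the log2 scale (-0.36 ± 0.09, adjusted p 0.0479), while 1.29% of all genes were called and 0.131% were called lower. Gmnc lost that call in 9 of 19 alternatives. The median log2 change was -0.31 and 64 of the 74 genes were below 0, with 10 above it, against 48.3% of all genes above. In 6 genes every CHX plus T3 library lay below every CHX library (Gmnc, Wdr66, Spag6l, Dnaaf3, Cfap157 and Rsph9), against 5.17% of all genes, and in none did every one lie above, against 7.16%. Without replicate 4 of 6 h CHX the median was -0.08. All 4 CHX plus T3 libraries came from lane 6 and only replicate 4 of 6 h CHX shared that lane. With lane as a term 31 genes were called, all lower, against 4.10% of all genes in either direction. All 14 microglia markers, all 13 ependymal markers tested and 9 of 10 neuron markers were below 0 with T3 under CHX, with medians of -0.37, -0.16 and -0.29, and none was called. Their part was not tested.

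The difference between the T3 effect with CHX and without it was called in 14 genes, all lower with CHX, while 0.634% of all genes were called lower and 1.22% in either direction. The median difference was -0.83, and 66 of the 74 were below 0. In the same comparison all 14 microglia markers were below 0 (median -0.58), as were all 10 neuron markers (median -0.75, 1 called) and 12 of 13 ependymal markers (median -0.40, 1 called). Their part was not tested. Wdr66 had 10.1, 8.96, 10.6 and 8.28 CPM in 6 h CHX plus T3 libraries, against 12.4, 13.6, 11.1 and 20.7 CPM in 6 h CHX libraries. With the T3 and control values given above, its difference of effects was -1.72 ± 0.25 (adjusted p 0.00126), and it was the one gene called in all 27 alternatives. The others were Ak7 (-2.13), Cfap299 (-2.31), Wdr63 (-1.98), Cfap161 (-1.89), Rsph10b (-1.83), Spag6l (-1.62), Cfap206 (-1.503), Tekt1 (-1.49), Cfap52 (-1.45), Rsph4a (-1.22), Rsph1 (-0.99), Drc3 (-0.96) and Gmnc (-0.60). Ak7 had 1.96, 1.58, 2.05 and 1.52 CPM in 6 h CHX plus T3 libraries, against 2.88, 2.58, 2.03 and 6.58 CPM in 6 h CHX libraries. Without replicate 4 of 6 h CHX, 2 genes were called, Wdr66 and Spag6l, and the median was -0.63.

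**Figure D4:**
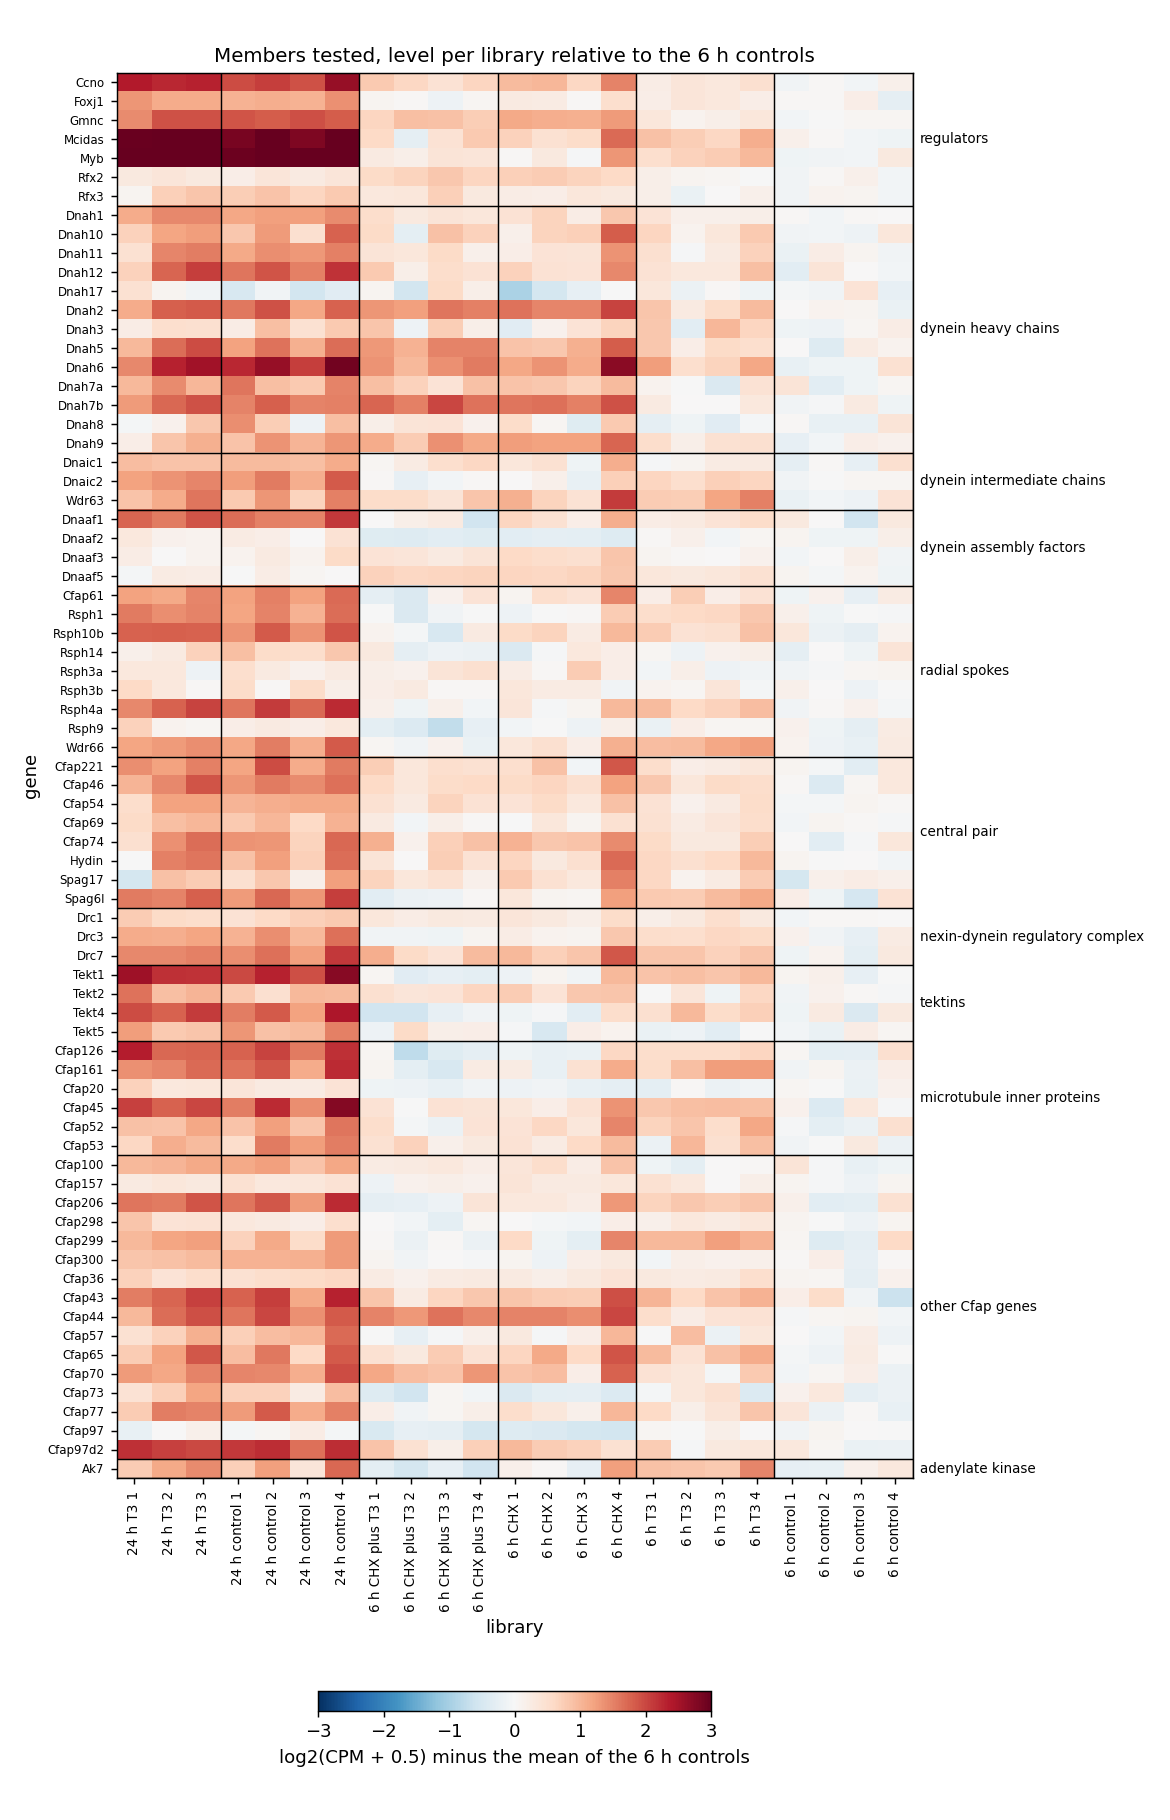
Level of each of the 74 genes tested (one line each, ordered by role) in the 23 libraries (columns, from 24 h T3 on the left to 6 h control on the right), as log2(CPM + 0.5) minus the mean of the 6 h controls, with colours that stop at 3 in either direction. Both 24 h groups are red throughout most lines, and replicate 4 of 6 h CHX is redder than its neighbours, as it was for 62 of 74 genes.

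Other genes of motile cilia were taken from a list outside the symbol rule. Of 43 tested, 40 were higher in 24 h than in 6 h controls with a median of 1.62. In 24 h T3 against 6 h T3 libraries 37 were higher, where 29.3% of all genes were called higher. With T3 at 6 h, 7 rose and none fell, namely Ccdc40 (0.60), a doublet ruler protein, Ttc25 (0.65), a docking protein of the outer arm, Lrrc6 (1.01), a dynein assembly factor, Dnajb13 (0.50), a radial spoke chaperone, Iqcg (0.42), of the nexin-dynein regulatory complex, Enkur (0.36), a doublet inner protein, and Lrrc23 (1.05), of the radial spokes. None was called by edgeR with T3 at 24 h or with T3 under CHX. There 1 and 16 of them had an unadjusted p under 0.05, with no share of all genes computed beside these counts. CHX raised 21 and lowered 2, Dnal1 and Enkur. In all, 28.2% of genes were called higher in 24 h than in 6 h controls, 2.61% with T3 at 6 h and 37% with CHX.

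Regulators outside the symbol rule were examined alongside, and each value given here for a single gene passed the test. Trp73, which encodes a p53-family factor upstream of Foxj1 and Myb in multiciliated cells, was 3.17 higher in 24 h than in 6 h controls and 1.91 higher with CHX on the log2 scale. Foxn4, which acts with Mcidas in frog skin, was 1.85 and 1.42 higher in the same comparisons. Gmnn, the geminin that binds Mcidas and Gmnc, was lower in 24 h controls (-0.62), as were E2f4 (-0.50), Six3 (-0.49), E2f5 (-0.43), Rfx4 (-0.36) and Tfdp1 (-0.17). Deup1, which builds the deuterosomes on which centrioles multiply, was higher with T3 at 6 h (1.10), with CHX (1.40) and in 24 h controls (2.39). Cdc20b, which shares the locus of Mcidas and Ccno, was higher with CHX (1.27) and in 24 h controls (2.36). The genes named with CHX are those that rose. Of 12 such transcription factors tested, 3 were higher with CHX and 5 lower, with a median of -0.07. Of 12 centriole amplification genes, 4 were higher with CHX and 5 lower, with a median of -0.02. Of all genes, 37% were called higher with CHX and 30.6% lower. With T3 at 24 h, 1 of the 12 factors was called lower, against 2.68% of all genes. Of 47 genes of intraflagellar transport and the primary cilium, 38 were higher and 1 lower in 24 h controls, with a smaller median of 0.44. There 28.2% of all genes were called higher. With CHX 32 of the 47 were higher and 5 lower, with a median of 0.43. With T3 at 6 h 2 of them rose and none fell, while 2.61% of all genes were called higher. In that comparison Deup1 was the 1 gene called of the 12 centriole amplification genes, and none of the 12 transcription factors was called.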

How the data were processed

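RNA libraries of astrocytes, 23 in 6 groups, were sequenced as single reads of 50 nt. The authors deposited 1 count table per library, whole reads per Ensembl gene ID as the values show. Bowtie, TopHat, HTSeq, edgeR and the build GRCm38 are named in the submitters' processing notes, while no version, annotation release or strand setting is given in the sources used here. The 5 closing lines of each table were kept out of the gene counts. Their shares are of the table's total, genes and closing lines together. Reads without a feature were 3.75% to 5.81%, ambiguous reads 1.40% to 1.70% and multiply aligned reads 30.7% to 42.3%. Reads shared by near-identical gene copies are therefore not in the gene counts. Symbols came from the reference annotation, which holds 36429 of the 38293 IDs.

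From the deposited counts, one edgeR 4.0.16 quasi-likelihood model (R 4.3.3, limma 3.58.1) was fitted with 1 mean per group over all 23 libraries, TMM scaling and filterByExpr (minimum count 10), which left 16087 genes, 17 residual degrees of freedom and a biological coefficient of variation of 8.57%. P-values were adjusted by Benjamini-Hochberg over all genes tested. The SE of a log2 difference was derived from the test, as the difference's size divided by the square root of its F value. CPM was computed here from counts and TMM library sizes, and CPM per kb from the union of exons. The code was tested on simulated data with known changes. The genes and lists were chosen with earlier results of these data known, as were the 3 promoter motifs. Genes named are all regulators, the 3 most abundant per kilobase in each structural group, genes called in a comparison (up to 25 by adjusted p) and the abundant or called genes of companion lists; further genes given with values were chosen after their values were seen. Replicate numbers and description letters recur across groups. Deviations from the group means correlated at -0.28 to 0.09 between same-numbered libraries and at -0.26 to 0.20 between same-lettered ones. These values cannot settle whether such libraries share a culture, which the labels do not say. No block was used in the main fit, and fits with a block are among the alternatives. Alternatives were RLE scaling, DESeq2 1.42.0, no filter, a threshold of 0.01, fits on the compared groups alone, lane, a length and GC trend, replicate blocks and leaving out libraries.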

Additional observations from a re-analysis of the deposited data

Results flagged for a closer look

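In 165 groups of 4 libraries (a gene's or a structural group's level in 1 condition), 21 had a library far from the other 3, where chance gives about 1 in 20 groups. Replicate 4 of 6 h CHX accounted for 11 of the 21, each time as the highest library. Its summed CPM was 170.3 for the dynein heavy chains (104 to 109 in the others), 317 for other Cfap genes (248 to 260.1), 127 for radial spokes (88.3 to 88.6), 102 for dynein assembly factors (89.7 to 91.4), 80.4 for microtubule inner proteins (58.7 to 61.2) and 14.5 for tektins (7.54 to 7.86). Its level was 10.2 CPM for Mcidas, 16.7 CPM for Myb, 30.1 CPM for Drc3, 26.7 CPM for Rsph1 and 9.66 CPM for Tekt1.

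Other libraries stood apart singly. Ak7, counted both as a gene and as its own structural group, was high in replicate 4 of 6 h T3 at 7.77 CPM, with 4.73 to 5.02 CPM in the other 3. Rfx3 was high in replicate 3 of 6 h CHX plus T3 (109.9 CPM), Drc3 in replicate 4 of 6 h CHX plus T3 (18.1 CPM), Foxj1 in replicate 4 of 24 h control (1094 CPM), and Myb (8.03 CPM) and Wdr63 (2.65 CPM) in replicate 4 of 6 h control. Low values were those of Cfap36 in replicate 2 of 6 h CHX plus T3 (95.3 CPM) and in replicate 3 of 6 h control (72.3 CPM), where other Cfap genes also summed lowest (187 CPM).

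The T3 effect with CHX was lower than without CHX, by edgeR's test of the difference itself, for Cfap299 (-2.31), Ak7 (-2.13), Wdr63 (-1.98), Cfap161 (-1.89), Rsph10b (-1.83), Wdr66 (-1.72), Spag6l (-1.62), Cfap206 (-1.503), Tekt1 (-1.49), Cfap52 (-1.45), Rsph4a (-1.22), Rsph1 (-0.99), Drc3 (-0.96) and Gmnc (-0.60), all on the log2 scale. Without replicate 4 of 6 h CHX, 2 of the 74 genes (Wdr66 and Spag6l) were called in this comparison. The T3 effect at 24 h was lower than at 6 h for Wdr66 (-1.27).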

How the results depend on the processing

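Counts of motile cilia genes called are given in the order T3 at 6 h, T3 at 24 h, the T3 effect under CHX, that effect minus the one without CHX, and the effect at 24 h minus that at 6 h, where the main counts were 14, 0, 1, 14 and 1. They became 3, 0, 0, 1 and 0 at adjusted p under 0.01, 26, 0, 3, 28 and 6 with DESeq2, 22, 0, 2, 23 and 4 without the filter, 23, 1, 2, 27 and 5 with a length and GC trend removed, and 26, 1, 31, 46 and 15 with lane. RLE scaling gave 0 for T3 under CHX. Fits on the compared groups alone gave 34 for T3 at 6 h and 24 for the CHX difference. Leaving out 24 h T3 replicate 1 together with 6 h CHX replicate 4 gave 34 for T3 at 6 h and 3 for the time difference. Leaving out 24 h control replicates 2 and 4 gave 23 for the CHX difference and 0 for the time difference. With a replicate block by title number the counts were 26, 1, 6, 26 and 1, by the letter in the descriptions 26, 0, 6, 25 and 10, and by block with the length and GC trend 33, 1, 8, 35 and 8. The CHX count (49) and both time counts (68 and 50) stayed within 1.5 times under all of these but lane, which gave 29 for 24 h against 6 h controls and 18 with T3. Leaving out 1 library at a time gave 3 to 16, 0 to 1, 0 to 3, 1 to 21 and 1 to 5. Signs turned for values near 0. With T3 at 24 h, Mcidas was -0.0035 with RLE, -0.0058 with DESeq2, -0.0015 on the groups alone, -0.055 with lane, -0.025 with the trend, -0.039 with the letter block and -0.085 to 0.21 with 1 library out. Myb was -0.019 with lane and -0.019 to 0.21 with 1 library out. Leaving out the pair 24 h T3 replicate 1 and 6 h CHX replicate 4 turned the 24 h values to -0.034 for Foxj1, 0.048 for Gmnc and 0.013 for Rfx3, and T3 under CHX to 0.21 for Myb. With 1 library out the 24 h ranges were -0.034 to 0.12 for Foxj1, -0.18 to 0.048 for Gmnc, -0.33 to 0.013 for Rfx3 and -0.011 to 0.043 for Rfx2. For T3 under CHX they were -0.052 to 0.022 for Rfx2 and -0.37 to 0.21 for Myb, and lane gave 0.070 for Rfx2. Rfx3 with T3 at 6 h ranged from -0.0072 to 0.11 and was -0.040 with the trend and -0.037 with trend and block, and with CHX it was -0.014 and -0.013. The trend gave -0.0029 for Foxj1 with T3 at 24 h. Rsph4a, 24 h against 6 h with T3, was -0.024 with lane. For the T3 effect at 24 h minus 6 h, leaving out 24 h control replicates 2 and 4 gave 0.018 for Ccno and 0.0053 for Rfx2, and the trend 0.011 for Rfx2. The causes were not tested. At 8.57% variation between libraries, genes of a few CPM limit what could be called.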
